A study of Mus musculus with 14 samples.

Results

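The MEF2 factors and their coregulators were followed here as 9 mouse genes: the MEF2 genes Mef2a, Mef2c and Mef2d, the class IIa histone deacetylase genes Hdac4, Hdac5, Hdac7 and Hdac9, and the serum response factor pair Srf and Myocd. They were chosen by symbol, and each symbol was matched to its Ensembl gene ID through GENCODE vM21 on build GRCm38. All 9 were found among the 54446 genes of the count table, and all 9 passed the filter on low counts that left 17987 genes for testing. The rule used no expression value.

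RNA was sequenced from nuclei of ICR mouse hearts that had been enriched for PCM1, a protein that sits at the nuclei of cardiomyocytes. Mice received adeno-associated virus AAV9 intraperitoneally at postnatal day 7, and their hearts were collected at postnatal day 12. The viruses carried human MEF2A (AAV9:cTnT-hMEF2A) or YAP5SA (AAV9:cTnT-YAP5SA), a form of YAP that escapes inhibition by the Hippo pathway, behind the cardiac troponin T promoter, which is active mainly in cardiomyocytes. The series title ties the study to YAP and a metabolic state of renewal in cardiomyocytes. The YAP5SA_MEF2A group (2 libraries) received both viruses, the YAP5SA group (3 libraries) and the MEF2A group (4 libraries) received 1 virus each, and the Control group (5 libraries) received no virus. The dose was 1E11 genome copies per virus, so YAP5SA_MEF2A hearts received both doses together. Because Control hearts had no AAV at all, a difference from Control holds the virus and its transgene together. All mice were wild-type ICR, an outbred stock. The labels do not say whether a library is 1 heart or a pool, so p-values measure the spread between libraries, which may be in part technical.

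MEF2 proteins bind AT-rich elements in the promoters of muscle genes and are required for the differentiation of heart muscle. Class IIa histone deacetylases bind MEF2 proteins and repress them, and kinases such as the CaM kinases and protein kinase D release that repression by sending the deacetylases out of the nucleus. SRF binds CArG boxes, AT-rich elements of another kind, and myocardin is its coactivator in cardiac and smooth muscle.

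Total counts ran from 16171068 to 24027622 per library. Genes of the mitochondrial chromosome took 60.7% and 67.5% of counts in Control 1 and Control 2, 32.2% in YAP5SA 3, and 3.8% to 23.2% in the other 11 libraries. Batch 1 of the labels held 8 libraries, which were both YAP5SA_MEF2A libraries, YAP5SA 1 and 2, MEF2A 1 and 2 and Control 1 and 2, and batch 2 held the other 6, with YAP5SA 3 as its sole YAP5SA library. By Xist and Y-linked transcripts both YAP5SA_MEF2A libraries were female and the 3 YAP5SA libraries male, so sex and the second virus cannot be told apart between these groups. Of the MEF2A libraries 3 were female and 1 male (MEF2A 4), and of the Controls 2 were female and 3 male, so YAP5SA and MEF2A also differed largely in sex. Transgene reads of human sequence may go uncounted at the mouse loci. As a check of the labels, Amotl2, a target of YAP chosen after its values were seen, had 535 and 574 CPM (counts scaled to a common library size) in YAP5SA_MEF2A and 820, 459 and 501 CPM in YAP5SA, against 94.5 CPM at most in MEF2A and 95.4 CPM at most in Control.

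The promoters of 8 of the 9 genes, at 14 annotated starts, were found in RefSeq (GRCm38.p6). Each was read from 250 bases before the start to 25 after it and searched on both strands for the MEF2 consensus, for the CArG box and for GGAATG, the core that TEAD factors, the DNA-binding partners of YAP, recognise. The MEF2 consensus occurred in the windows of Mef2a and Hdac5 and in 3.03% of all 32851 windows of this kind. The CArG box occurred in the Srf window, at a pair of places, and in 1.53% of all windows. GGAATG occurred at the first Mef2c start and at the Hdac7 starts numbered 2 and 4, and in 13.7% of all windows. Windows of the called genes Mef2a and Hdac9 and of those with a MEF2 or CArG match follow, 5′ to 3′ on the gene's strand, which is the minus strand for each, with matches in capitals. The MEF2 match of Mef2a spans its start, from base -2 to base 8, and that of Hdac5 lies at -20 to -11. The CArG matches of Srf lie at -82 to -73 and at -62 to -53. Neither Hdac9 start had a match to any of the 3 motifs, which says only that these letters are not in these windows. The windows are chr7:67372834-67373108 for Mef2a, chr11:102230148-102230422 for Hdac5, chr12:34917071-34917345 and chr12:34528865-34529139 for the first and second Hdac9 starts, and chr17:46556138-46556412 for Srf.
Mef2a: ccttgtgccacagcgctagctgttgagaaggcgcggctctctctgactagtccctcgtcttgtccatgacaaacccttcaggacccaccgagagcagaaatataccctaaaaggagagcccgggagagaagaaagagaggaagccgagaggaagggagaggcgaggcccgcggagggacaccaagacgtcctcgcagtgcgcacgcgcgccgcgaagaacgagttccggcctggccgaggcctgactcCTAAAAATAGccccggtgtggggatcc
Hdac5: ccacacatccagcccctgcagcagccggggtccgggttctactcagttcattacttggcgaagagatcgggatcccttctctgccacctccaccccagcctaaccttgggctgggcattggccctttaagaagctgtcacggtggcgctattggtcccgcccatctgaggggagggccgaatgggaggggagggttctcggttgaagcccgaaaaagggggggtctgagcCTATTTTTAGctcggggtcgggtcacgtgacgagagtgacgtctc
Hdac9 start 1: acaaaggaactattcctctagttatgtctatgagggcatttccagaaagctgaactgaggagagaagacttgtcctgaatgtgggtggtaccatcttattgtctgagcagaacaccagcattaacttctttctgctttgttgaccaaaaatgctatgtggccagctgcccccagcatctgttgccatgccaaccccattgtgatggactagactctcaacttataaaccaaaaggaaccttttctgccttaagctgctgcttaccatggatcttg
Hdac9 start 2: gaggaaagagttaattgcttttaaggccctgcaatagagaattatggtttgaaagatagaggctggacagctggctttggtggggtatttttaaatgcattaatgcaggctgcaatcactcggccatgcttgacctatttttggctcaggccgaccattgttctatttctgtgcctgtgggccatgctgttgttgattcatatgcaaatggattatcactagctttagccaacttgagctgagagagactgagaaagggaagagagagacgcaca
Srf: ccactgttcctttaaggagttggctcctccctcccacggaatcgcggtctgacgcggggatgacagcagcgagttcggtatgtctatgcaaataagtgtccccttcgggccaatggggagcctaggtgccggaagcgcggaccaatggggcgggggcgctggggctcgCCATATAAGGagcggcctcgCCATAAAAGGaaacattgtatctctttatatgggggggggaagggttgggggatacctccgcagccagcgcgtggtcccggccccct

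Among the MEF2 factors, Mef2a fell in YAP5SA relative to MEF2A, and neither Mef2c nor Mef2d was called in any of the 7 comparisons. Mef2a (ENSMUSG00000030557, chromosome 7, 67231163 to 67372858, minus strand) encodes a main MEF2 protein of the heart after birth and is the mouse counterpart of the human gene in the virus. It had 484 and 562 CPM in YAP5SA_MEF2A, 392, 535 and 251 CPM in YAP5SA 1 to 3, 623, 612, 570 and 580 CPM in MEF2A, and 542, 573, 607, 551 and 510 CPM in Control. All 3 YAP5SA libraries lay under all 4 MEF2A libraries, while YAP5SA 2 lay within the Control range. The log2 fold change of Mef2a was -0.67 ± 0.21 (SE) for YAP5SA over MEF2A (adjusted p = 0.0365, edgeR), with a 95% interval of -1.10 to -0.23. With sex as a further term, a setting chosen after the values were seen, it was -0.68 and missed the threshold (adjusted p = 0.0799, edgeR). Against Control the difference of YAP5SA missed the threshold, at -0.59 ± 0.20 (adjusted p = 0.0717, edgeR), while DESeq2 and limma-voom put it at adjusted p = 0.0133 and 0.0313. Over 27 alternatives the Mef2a difference of YAP5SA from Control ran from -1.15 to 0.10, and its sign changed, uncalled, in 1 of them. In MEF2A hearts mouse Mef2a did not differ from Control beyond the spread, with a log2 fold change of 0.07 ± 0.17 (adjusted p = 0.958, edgeR) and a 95% interval of -0.29 to 0.44. Its exons share 302 bases, 2.06% of their length, with those of Lysmd4 on the other strand, and the libraries carry no strand, but Lysmd4 had at most 931 counts in a library, against 4392 or more for Mef2a.

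Mef2d (ENSMUSG00000001419, chromosome 3, 88142372 to 88172086, plus strand) encodes the MEF2 protein best known in the adult heart for its part in stress-driven remodelling in mice. It had 279 and 291 CPM in YAP5SA_MEF2A, 183, 258 and 169 CPM in YAP5SA, 312, 299, 215 and 181 CPM in MEF2A, and 218, 255, 148, 255 and 264 CPM in Control. YAP5SA libraries overlapped both MEF2A and Control, and the log2 fold changes were -0.35 ± 0.22 against MEF2A and -0.27 ± 0.21 against Control (adjusted p = 0.3 and 0.461, edgeR). Mef2c (ENSMUSG00000005583, chromosome 13, 83504034 to 83667080, plus strand), which is required for the embryonic heart in mice, was the least abundant of the 3. It had 12.8 and 14.2 CPM in YAP5SA_MEF2A, 11.3, 14 and 16.5 CPM in YAP5SA, 17, 16, 15.9 and 13.4 CPM in MEF2A, and 11.9, 31.4, 7.71, 15.9 and 12.7 CPM in Control. The Control libraries alone span the values of every other group, with Control 2 at the top and Control 3 at the bottom. Mef2c counts were low, 105 to 473 per library, and its 95% interval for YAP5SA over Control, from -0.91 to 0.49 on the log2 scale, leaves room for a change of either sign.

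The class IIa deacetylases differed in sign in YAP5SA, with the means of Hdac7 above and those of Hdac4, Hdac5 and Hdac9 below MEF2A and Control, although with library totals in place of TMM scaling Hdac4 and Hdac5 stood at 0.17 and 0.13 over Control on the log2 scale, where the median of all genes was 0.69. Hdac9 (ENSMUSG00000004698, chromosome 12, 34047580 to 34917095, minus strand), a gene that MEF2 proteins are known to activate and whose product represses them in turn, fell in YAP5SA relative to MEF2A and had the log2 fold change farthest from 0 of the 9 genes over the 7 comparisons. It had 22.1 and 29.8 CPM in YAP5SA_MEF2A, 12.2, 27.8 and 7.72 CPM in YAP5SA, 31.4, 47.1, 33.9 and 40.2 CPM in MEF2A, and 20.4, 21.4, 23.1, 27.1 and 31.3 CPM in Control. MEF2A libraries lay above every library of the other groups, though only just above Control 5, and YAP5SA 1 and 3 lay under every other library, while YAP5SA 2 lay within the Control range. The share of all genes with MEF2A set apart from every other group was not counted. Hdac9 was at 0.403 times its MEF2A level in YAP5SA, a log2 fold change of -1.31 ± 0.35 (adjusted p = 0.018, edgeR; 95% interval -2.05 to -0.58). With sex as a further term it was -1.15 and missed the threshold (adjusted p = 0.0692, edgeR). MEF2A stood 0.60 ± 0.29 above Control on the log2 scale (adjusted p = 0.695, edgeR; 95% interval -0.01 to 1.21), and YAP5SA differed from Control by -0.71 ± 0.35 (adjusted p = 0.209, edgeR). In YAP5SA_MEF2A, Hdac9 was close to Control, with a log2 fold change of -0.03 ± 0.40 (adjusted p = 0.986, edgeR) whose 95% interval ran from -0.88 to 0.81.

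Hdac4 (ENSMUSG00000026313, chromosome 1, 91928779 to 92195699, minus strand), the class IIa deacetylase that answers to CaM kinase II, had 45.8 and 43.5 CPM in YAP5SA_MEF2A, 31.6, 45.1 and 27.5 CPM in YAP5SA, 50.8, 46.2, 62.3 and 68.9 CPM in MEF2A, and 50, 57.5, 66.1, 46.7 and 36.8 CPM in Control. YAP5SA libraries lay under all MEF2A libraries and overlapped Control. The log2 fold change of Hdac4 in YAP5SA was -0.72 ± 0.24 against MEF2A (adjusted p = 0.0539, edgeR) and -0.56 ± 0.23 against Control (adjusted p = 0.136, edgeR), and DESeq2 and limma-voom called the difference from MEF2A at adjusted p = 0.0333 and 0.045. With sex as a further term, a setting chosen after the values were seen, edgeR called Hdac4 lower in YAP5SA. The log2 fold change was then -1.03 against MEF2A (adjusted p = 0.0152, edgeR) and -0.71 against Control (adjusted p = 0.0439, edgeR). Over 27 alternatives the Hdac4 difference of YAP5SA from MEF2A ran from -1.27 to -0.19. Gm26720 on the other strand covers 22.36% of the Hdac4 exons and had 0 counts in every library, and without strand their reads cannot be told apart. Hdac5 (ENSMUSG00000008855, chromosome 11, 102194432 to 102230166, minus strand), whose loss sensitises mouse hearts to hypertrophic stress, had 302 and 307 CPM in YAP5SA_MEF2A, 215, 305 and 227 CPM in YAP5SA, 414, 321, 381 and 354 CPM in MEF2A, and 376, 294, 565, 246 and 341 CPM in Control. YAP5SA again lay under MEF2A without overlap, and Control was wide enough to hold every MEF2A value. Its log2 fold change was -0.55 ± 0.24 against MEF2A and -0.54 ± 0.24 against Control (adjusted p = 0.136 and 0.17, edgeR).

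Hdac7 (ENSMUSG00000022475, chromosome 15, 97792664 to 97844502, minus strand), which is known for maintaining vascular endothelium in mice, had a positive log2 fold change. It had 138 and 121 CPM in YAP5SA_MEF2A, 189, 131 and 147 CPM in YAP5SA, 108, 104, 110 and 115 CPM in MEF2A, and 120, 123, 95.4, 100 and 92.9 CPM in Control. Every YAP5SA library lay above every MEF2A and Control library. The log2 fold change of Hdac7 was 0.52 ± 0.17 for YAP5SA over Control (adjusted p = 0.0554, edgeR) and 0.48 ± 0.17 over MEF2A (adjusted p = 0.0703, edgeR), so neither passed the threshold, while DESeq2 called both at adjusted p = 0.026 and 0.028. Summed endothelial markers, 12 of 12 of which were measured and none at 0, had 419 to 453 CPM in YAP5SA_MEF2A, 348 to 507 CPM in YAP5SA, 566 to 638 CPM in MEF2A and 459 to 1160 CPM in Control. Of these 12 markers, 0 rose and 4 fell in YAP5SA over Control (median -0.74), and 0 rose and 3 fell over MEF2A (median -0.42). Of all genes, 9.86% and 14.9% were called in these comparisons. The part of endothelial markers in the Hdac7 values was not tested.

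Neither Srf nor Myocd was called in any of the 7 comparisons. Srf (ENSMUSG00000015605, chromosome 17, 46548329 to 46556175, minus strand) had 53.5 and 47.4 CPM in YAP5SA_MEF2A, 38.8, 27.4 and 22.7 CPM in YAP5SA, 37.1, 29.1, 23.9 and 36 CPM in MEF2A, and 36.2, 37.6, 26.9, 27.3 and 25.9 CPM in Control. Both YAP5SA_MEF2A libraries lay above all 12 other libraries, and the other 3 groups overlapped one another. Between YAP5SA_MEF2A and MEF2A alone, groups did not overlap for 41.1% of all genes. The share of genes set apart from all 12 was not counted. The log2 fold change of Srf in YAP5SA_MEF2A was 0.66 ± 0.25 over YAP5SA, 0.49 ± 0.25 over MEF2A and 0.51 ± 0.24 over Control (adjusted p = 1, 0.363 and 0.369, edgeR). The interaction of Srf, which is the change of YAP5SA_MEF2A over YAP5SA minus that of MEF2A over Control, was 0.64 ± 0.31 (adjusted p = 1, edgeR; 95% interval -0.01 to 1.30). Within batch 1, which held both YAP5SA_MEF2A libraries, the difference of Srf from YAP5SA was 0.62, from MEF2A 0.61 and from Control 0.42.

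Myocd (ENSMUSG00000020542, chromosome 11, 65176561 to 65269989, minus strand) had 27.7 and 34.6 CPM in YAP5SA_MEF2A, 46.9, 25.6 and 30 CPM in YAP5SA, 30.5, 28.7, 33.5 and 22.9 CPM in MEF2A, and 14.2, 13.7, 36.3, 29.4 and 28.2 CPM in Control. Control 1 and Control 2, the libraries rich in mitochondrial transcripts, were lowest of all 14, and the other Controls lay among the virus groups. The log2 fold change of Myocd for YAP5SA over Control was 0.66 ± 0.31 (adjusted p = 0.185, edgeR). It was 1.34 in batch 1, where Control 1 and 2 are the only Controls (adjusted p = 0.0319, edgeR), and -0.06 in batch 2 (adjusted p = 0.938, edgeR). Whether the mitochondrial share has a part in this was not tested.

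**Figure D1:**
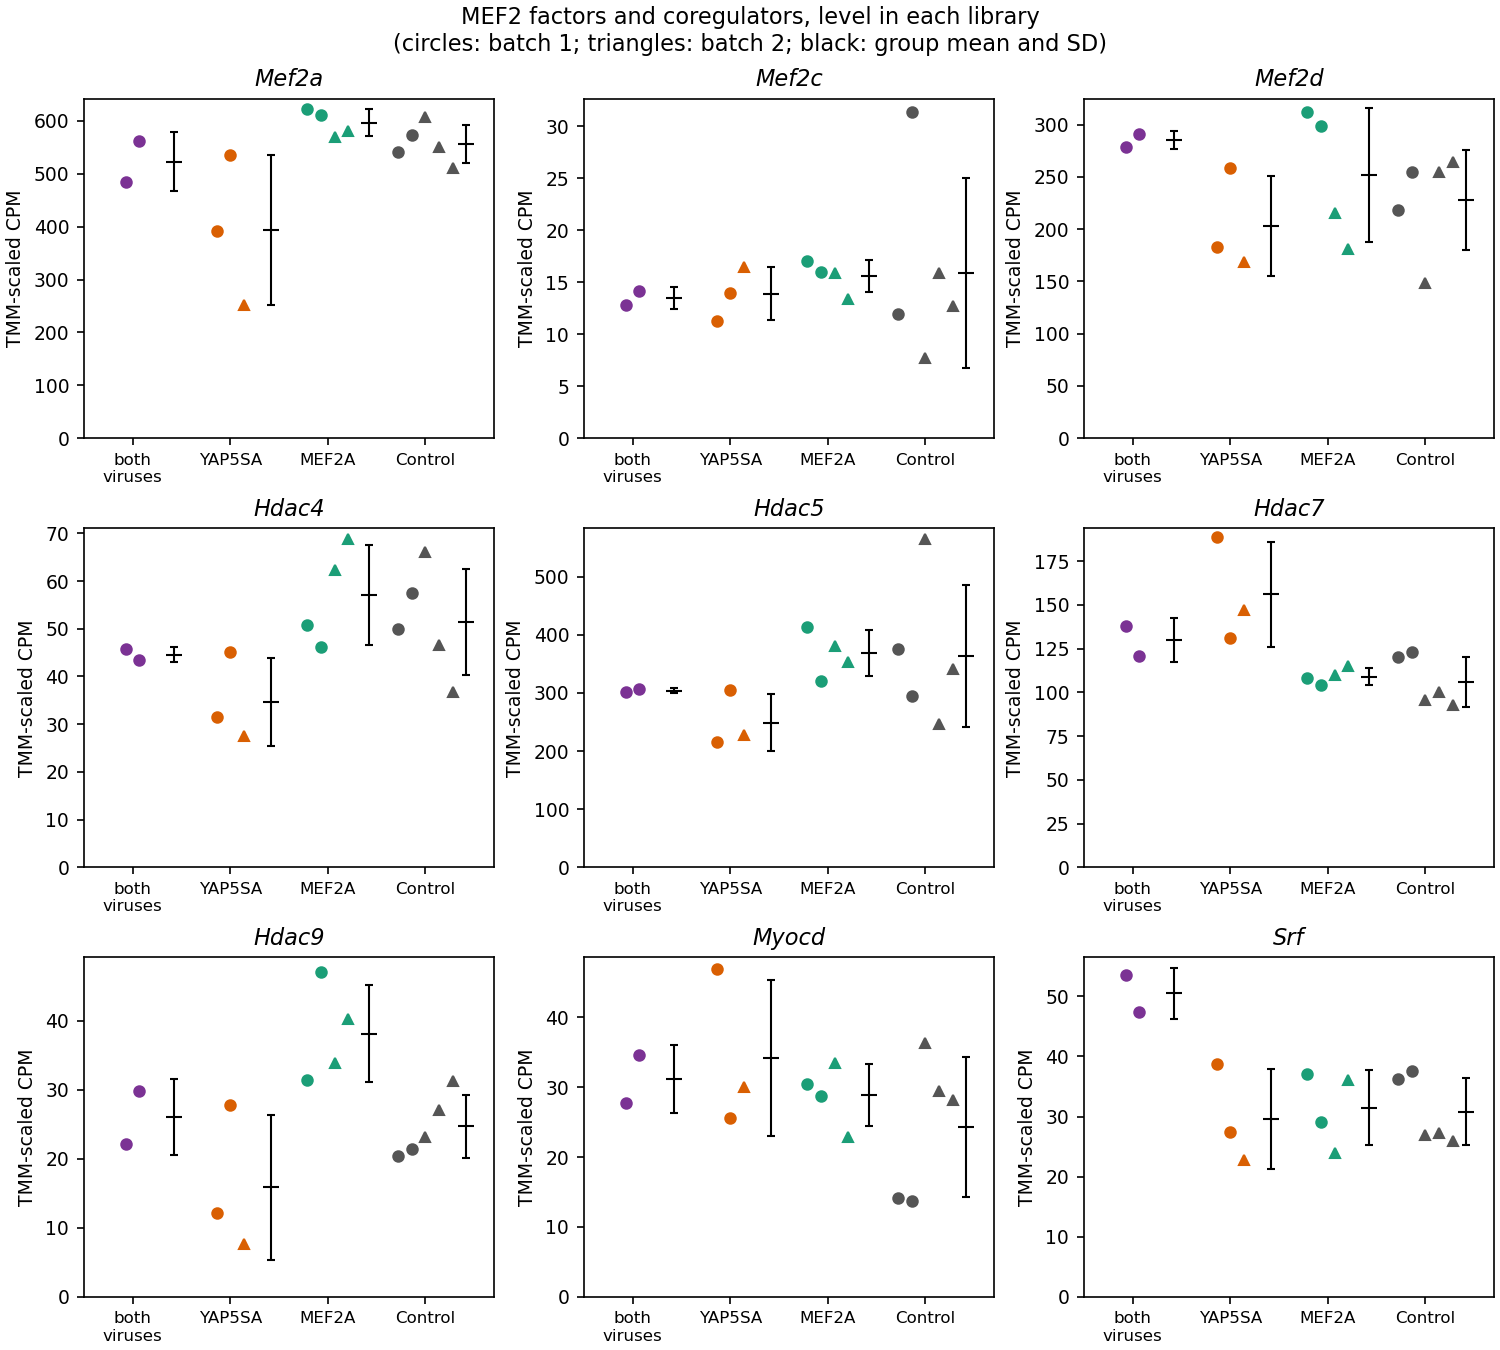
CPM (scaled by TMM) of each of the 9 genes by library, 1 panel per gene with its own axis from 0; groups run from both viruses at the left to Control at the right, circles are batch 1 libraries, triangles are batch 2 libraries, and bars give mean and SD. Hdac9 is lowest in YAP5SA 3 (7.72 CPM) and highest in MEF2A 2 (47.1 CPM), and Myocd is lowest in Control 2 (13.7 CPM).

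Levels can be set beside each other between genes per kilobase of annotated exon. In Control, Hdac5 had 41.5 ± 13.9, Mef2d 38.1 ± 8.02 and Mef2a 37.9 ± 2.48 CPM per kilobase (mean ± SD, n = 5), and these 3 overlapped. Hdac7 followed with 15.8 ± 2.11 and Srf with 10.6 ± 1.94 CPM per kilobase, without overlap between them or with the genes above. Myocd (3.79 ± 1.56) and Hdac4 (3.25 ± 0.70) overlapped each other, and so did Hdac9 (1.68 ± 0.31) and Mef2c (1.01 ± 0.58). Hdac4 lay above Hdac9 in every Control library. In YAP5SA, Mef2d averaged 34 ± 8.01, Hdac5 28.4 ± 5.53, Mef2a 26.8 ± 9.69 and Hdac7 23.1 ± 4.45 CPM per kilobase (n = 3), so the range of Hdac7 met those of Hdac5 and Mef2a there, while in MEF2A it lay apart from them. The exon length is that of all annotated exons together and not of the transcripts in use, which limits such a comparison.

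**Figure D2:**
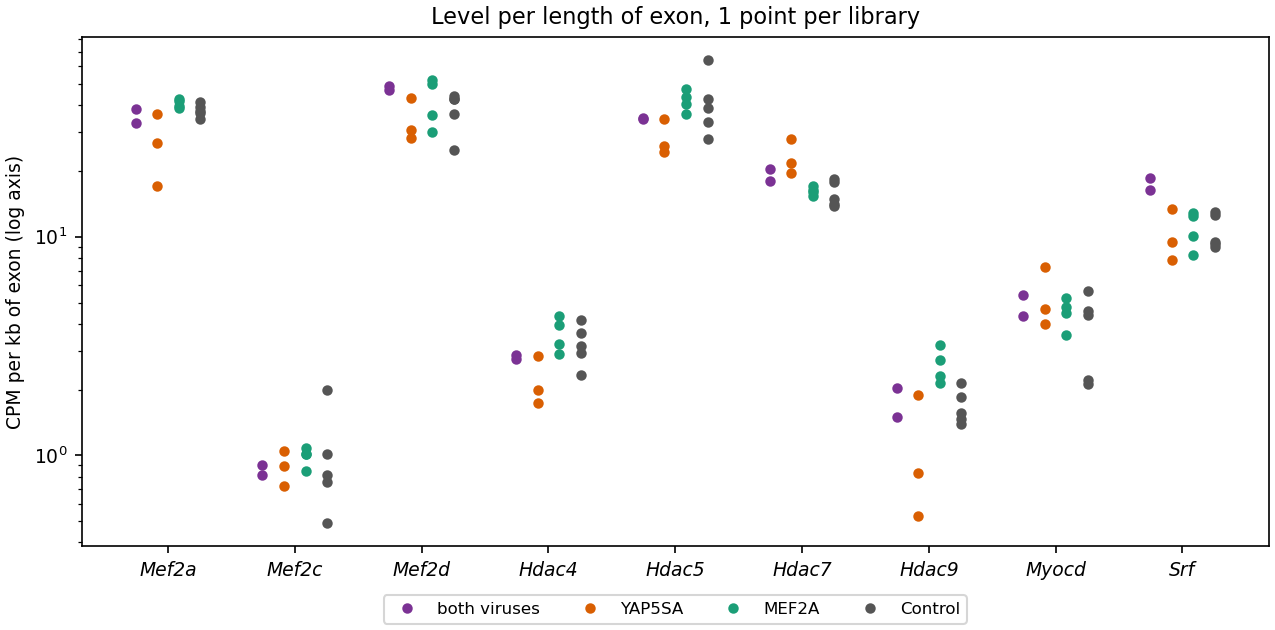
CPM per kilobase of exon of each gene on a log axis, 1 point per library, with both viruses at the left of each gene and Control at the right. Mef2a, Mef2d and Hdac5 form the top of the range (24.8 to 64.3 CPM per kilobase in Control for Mef2d and Hdac5), and Mef2c the bottom (0.491 to 2 CPM per kilobase in Control).

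The calls among the 9 genes were read against the share of all genes called. For YAP5SA over Control, edgeR called 0 of the 9 genes, against 9.86% of the 17987 genes tested, while DESeq2 and limma-voom called 2 each, Mef2a and Hdac7, against 16.4% and 12.3% of all genes. At an unadjusted p under 0.05 the count was 5 of 9 (Hdac7 and Myocd positive, Mef2a, Hdac4 and Hdac5 negative), against 25.4% of all genes. Groups did not overlap for 1 of the 9, Hdac7, against 13.6% of all genes. The median log2 fold change of the 9 genes was -0.27, beside 0.06 over all genes tested.

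For YAP5SA over MEF2A, 2 of the 9 genes were called, Mef2a and Hdac9, both lower, against 14.9% of all genes. DESeq2 called 4 of the 9, with Hdac4 and Hdac7 besides, against 21.8% of all genes, and limma-voom called 3, with Hdac4 besides, against 17.6%. At an unadjusted p under 0.05 there were 5 of 9, against 29.4% of all genes. Groups did not overlap for 5 of 9, against 29.6% of all genes, and these were Hdac7, higher, and Mef2a, Hdac4, Hdac5 and Hdac9, lower. The median of the 9 genes was -0.35, beside 0.08 over all genes. Both comparisons use the same YAP5SA libraries.

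The MEF2A virus without YAP5SA came with 3 called genes in the whole table. For MEF2A over Control, edgeR called 0 of the 9 genes, against 0.0167% of all genes, 0 of 9 had an unadjusted p under 0.05, against 7.27% of all genes, and DESeq2 and limma-voom called 0 of 9, against 0.467% and 0% of all genes. The 9 log2 fold changes ran from -0.02 for Mef2c to 0.60 for Hdac9. With both viruses, 0 of the 9 genes were called over Control (1.36% of all genes), over MEF2A (2.32% of all genes) or over YAP5SA (0% of all genes), and 0 in the interaction (0% of all genes), by edgeR and also by DESeq2 and limma-voom. DESeq2 called 4.53%, 5.88%, 0.1% and 0.122% of all genes in these 4 comparisons, and limma-voom called 2.16%, 3.31%, 0.00556% and 0%. At an unadjusted p under 0.05, the 4 comparisons had 0, 0, 1 (Srf) and 0 of the 9 genes by edgeR, against 13.6%, 15.4%, 2.87% and 2.45% of all genes. In genes, the last 2 shares are 516 and 441.

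In 2 pairs of comparisons the groups compared share no library. All values still come from 1 fit over the 14 libraries with a common batch term and a shared estimate of spread, so they are not independent. The first of each pair goes from no virus to 1 virus, and the other from 1 virus to both doses together. The addition of YAP5SA gave Hdac9 -0.71 without the MEF2A virus (YAP5SA over Control) and -0.63 with it (YAP5SA_MEF2A over MEF2A). It gave Mef2a -0.59 and -0.31, Hdac4 -0.56 and -0.35, Hdac5 -0.54 and -0.25, and Hdac7 0.52 and 0.17. For YAP5SA_MEF2A over MEF2A, groups did not overlap for 6 of the 9 genes, 2 higher (Hdac7 and Srf) and 4 lower (Mef2a, Hdac4, Hdac5 and Hdac9), against 41.1% of all genes. The addition of the MEF2A virus gave Hdac9 0.60 without YAP5SA and 0.68 ± 0.39 with it, and Mef2a 0.07 and 0.36. None of these differences between effects passed the interaction test, and with 2 YAP5SA_MEF2A libraries their intervals are wide, from -0.94 to 1.10 for Hdac9. Over the alternatives the Hdac9 interaction ran from -0.49 to 0.76 and changed sign, uncalled, in 9 of 26. The likeness of the paired Hdac9 values thus depends on the processing. Both YAP5SA_MEF2A libraries are of batch 1, and they differ from the YAP5SA libraries in sex.

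**Figure D3:**
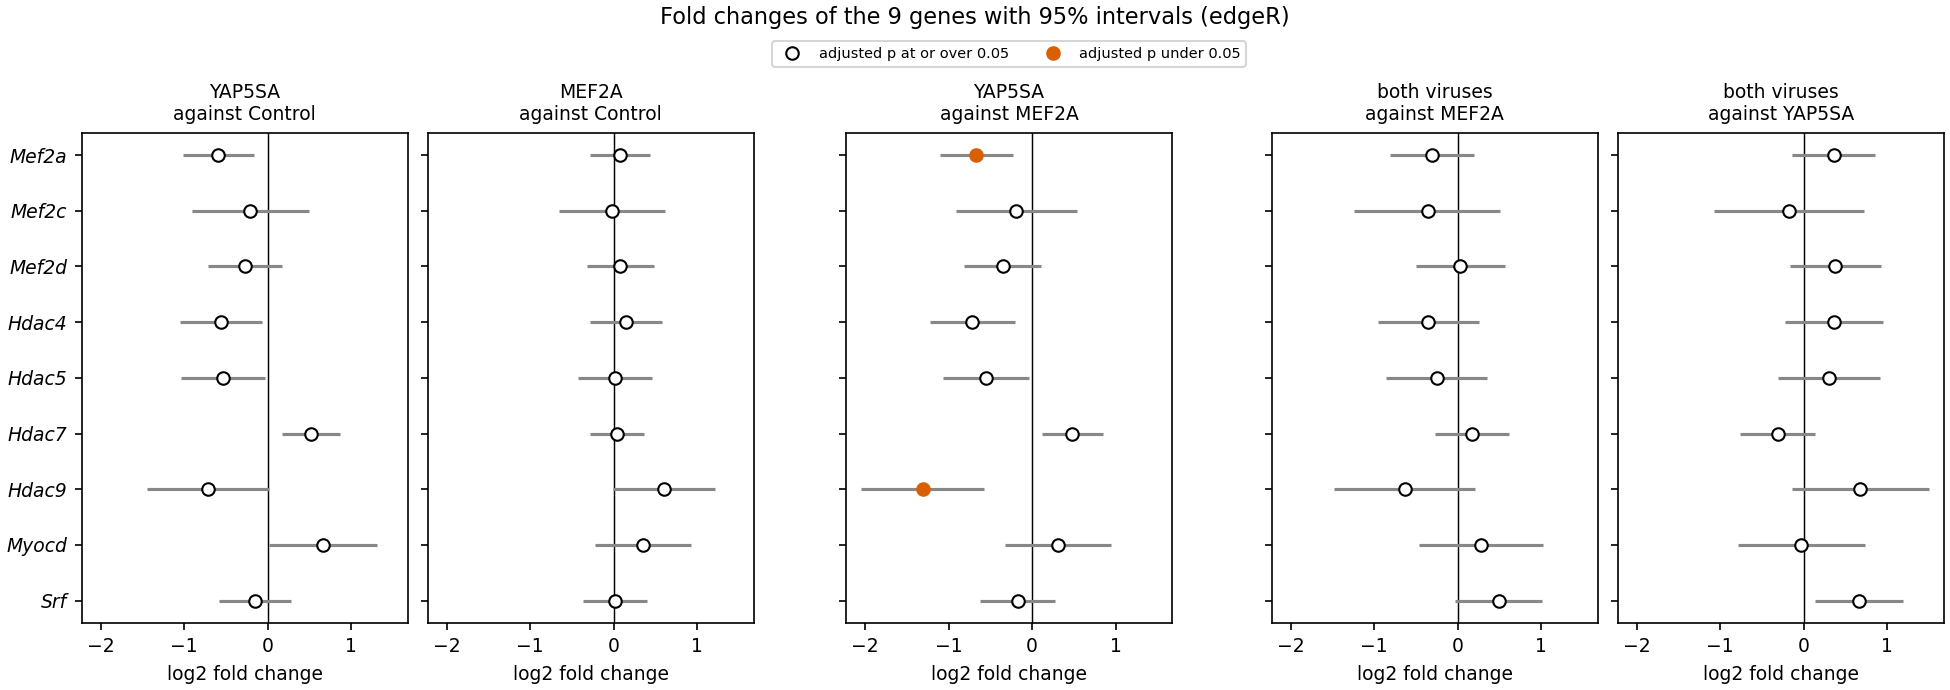
Log2 fold change of each gene with its 95% interval from edgeR in 5 comparisons, on the scale of the test. The intervals of Hdac9 (-2.05 to -0.58) and Mef2a (-1.10 to -0.23) for YAP5SA over MEF2A lie apart from 0, as do those of Hdac4 (-1.22 to -0.21), Hdac5 (-1.07 to -0.04) and Hdac7 (0.12 to 0.85). So do 5 intervals for YAP5SA over Control and that of Srf for YAP5SA_MEF2A over YAP5SA (0.14 to 1.19). Only Hdac9 and Mef2a in YAP5SA over MEF2A passed the adjusted threshold.

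The 3 YAP5SA libraries differed among themselves more than the genes' means show. YAP5SA 2 was the one nearest to the Control mean for 9 of the 9 genes, with a median distance of 0.18 on the log2 scale, beside 0.67 for YAP5SA 1 and 0.48 for YAP5SA 3. Without YAP5SA 2, YAP5SA over Control was called for Mef2a (-0.82, adjusted p = 0.00493), Hdac4 (-0.79, 0.0326), Hdac7 (0.64, 0.0124) and Hdac9 (-1.31, 0.00444), all adjusted p-values from edgeR, and Hdac9 in YAP5SA_MEF2A over YAP5SA rose by 1.39 (adjusted p = 0.0479, edgeR). Of all genes, 2998 were then called over Control, beside 1773 with every library. For YAP5SA_MEF2A over YAP5SA there were 227, beside 0. YAP5SA 2 was singled out by the values of these same 9 genes, so calls gained without YAP5SA 2 lend no support. Without YAP5SA 3 instead, the Hdac9 difference from MEF2A was -0.86 (adjusted p = 0.152, edgeR) and that of Mef2a -0.39 (adjusted p = 0.283, edgeR), so both calls ended. They also ended without YAP5SA 1, at adjusted p = 0.0894 for Hdac9 and 0.11 for Mef2a by edgeR. The Hdac9 call ended without MEF2A 2 (adjusted p = 0.0624), and the Mef2a call without any one of the MEF2A or YAP5SA_MEF2A libraries (adjusted p = 0.0572 to 0.0645).

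Batch gave values of different size and the same sign for the called genes. Hdac9 differed between YAP5SA and MEF2A by -0.98 in batch 1 (adjusted p = 0.18, edgeR) and by -2.28 in batch 2 (adjusted p = 0.00124, edgeR), and Mef2a by -0.42 (adjusted p = 0.245) and -1.22 (adjusted p = 0.00933). Batch 2 has a single YAP5SA library, YAP5SA 3, which is assumed to vary like the other groups. Against Control, Hdac9 gave -0.11 in batch 1 and -1.82 in batch 2, Mef2a -0.31 and -1.15, Hdac4 -0.53 and -0.86, Hdac5 -0.41 and -0.76, and Hdac7 0.35 and 0.61. Against MEF2A, Hdac4 gave -0.35 and -1.27, Hdac5 -0.51 and -0.71, and Hdac7 0.59 and 0.36.

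Cell type markers differed between libraries, and the fold changes depended on the scaling. Summed cardiomyocyte markers (12 of 12 measured, none at 0) had 44600 to 49900 CPM in YAP5SA_MEF2A, 31000 to 47100 CPM in YAP5SA, 91600 to 99000 CPM in MEF2A and 57600 to 99700 CPM in Control. YAP5SA 3, the library lowest in Mef2a, Hdac4 and Hdac9, was also lowest in cardiomyocyte markers and had 1090 CPM of macrophage markers (12 of 12 measured, none at 0 in any group), against 86 to 203 CPM in the other YAP5SA libraries, 62.8 to 103 CPM in MEF2A and 55.6 to 209 CPM in Control. Its summed fibroblast markers (12 of 12 measured, none at 0) were also the highest of the 14 libraries, at 3360 CPM, against 1910 and 1850 CPM in YAP5SA 1 and 2, 1580 to 1650 CPM in YAP5SA_MEF2A, 1480 to 2190 CPM in MEF2A and 1390 to 2330 CPM in Control. Their part in the results was not tested. In RNA of enriched nuclei sequenced together, the share of nuclei of a cell type and the RNA per nucleus cannot be told apart. With library totals in place of TMM scaling, the median of all genes shifted to 0.69 for YAP5SA over Control and 0.51 for YAP5SA over MEF2A, beside 0.06 and 0.08. Under library totals Hdac9 stood at -0.78 and Mef2a at -0.16 for YAP5SA over MEF2A (adjusted p = 0.368 and 0.879, edgeR), both under the median of all genes.

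**Figure D4:**
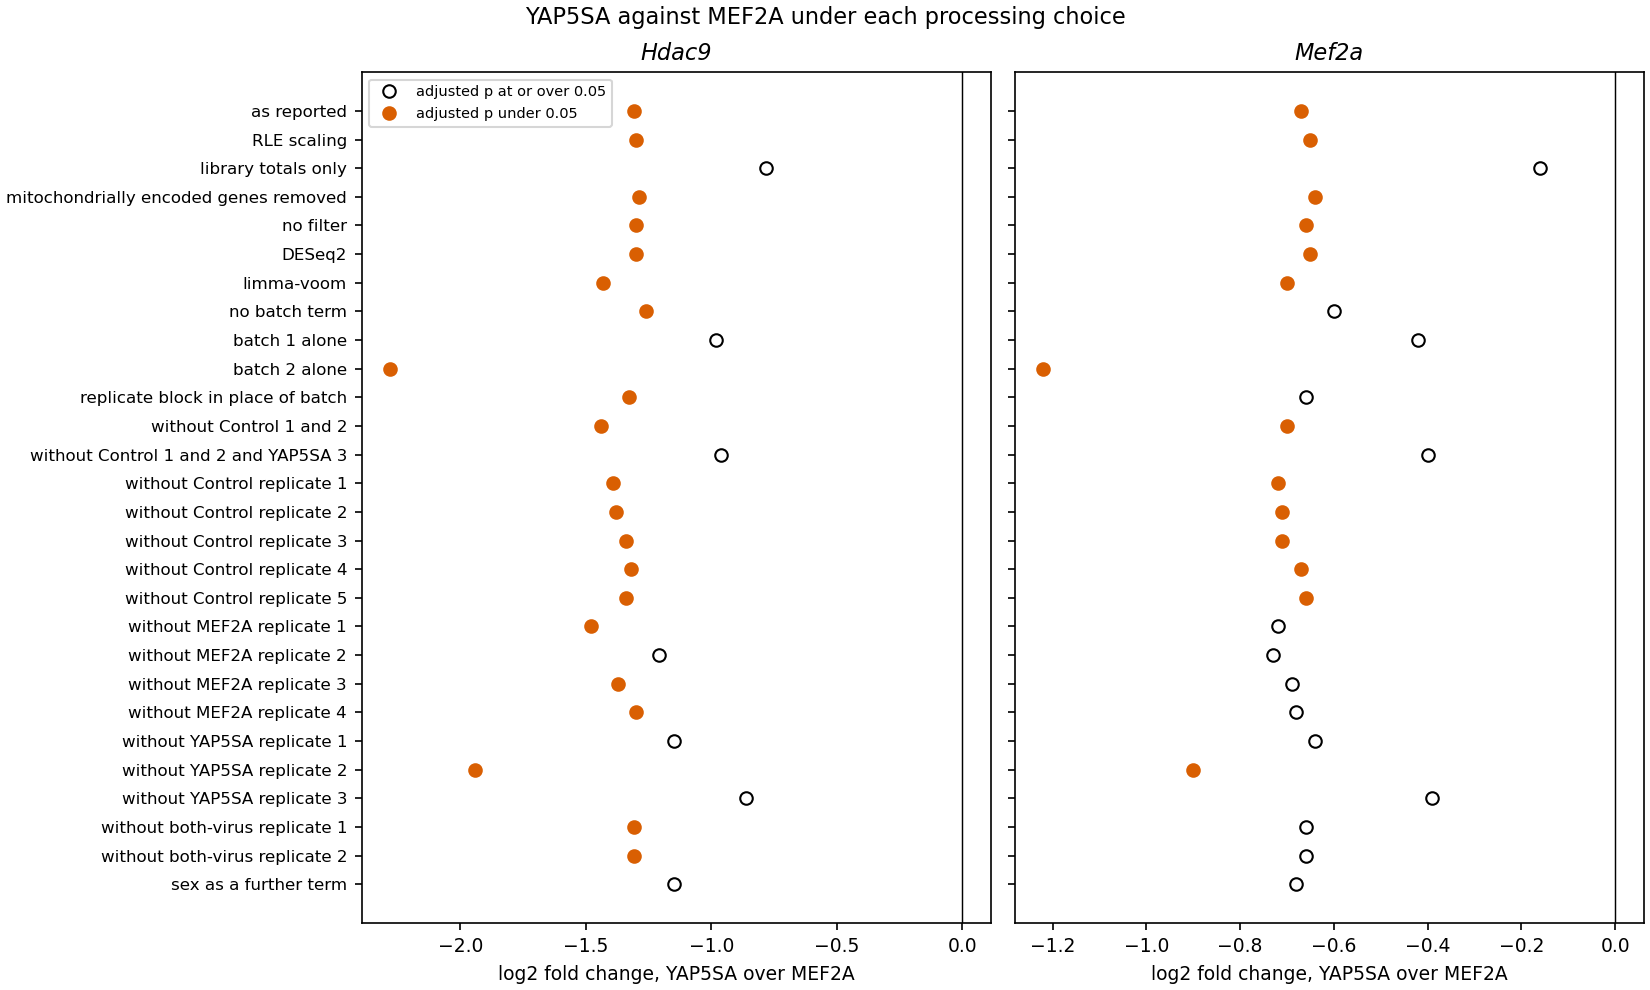
Log2 fold change of Hdac9 and Mef2a for YAP5SA over MEF2A under each processing choice, with filled points where the adjusted p was under 0.05. All values are negative; Hdac9 runs from -2.28 (batch 2 alone) to -0.78 (library totals), and the Mef2a call ends in 14 of 27 alternatives.

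Genes around the 9 were read from lists, whose counts stand beside the 9.86% of all genes called for YAP5SA over Control and the 14.9% called over MEF2A. Of 24 genes linked to SRF and its cofactors, 8 rose and 0 fell in YAP5SA relative to Control, with a median log2 fold change of 1.20 beside 0.06 over all genes. Cnn2, a calponin, rose by 2.06 ± 0.25 (adjusted p = 7.46e-05, edgeR), with 424, 145 and 269 CPM in YAP5SA and 50.8 to 81.9 CPM in Control. Myh9, a non-muscle myosin heavy chain, rose by 1.90 ± 0.24 (adjusted p = 0.000102, edgeR). Relative to MEF2A, 12 of the list rose and 2 fell in YAP5SA (median 1.31 beside 0.08). MEF2A over Control had 0 calls in the list by edgeR, DESeq2 or limma-voom. There 4 of the 24 genes had an unadjusted p under 0.05 by edgeR, against 7.27% of all genes. The 24 genes include targets of YAP itself, such as Ankrd1, so the list is not one of SRF alone. Ankrd1 stood 1.26 ± 0.48 above Control, uncalled (adjusted p = 0.119, edgeR), and rose by 1.92 ± 0.49 over MEF2A (adjusted p = 0.0206, edgeR). The part of YAP targets in the values of this list was not tested. Acta2 rose by 3.03 ± 0.52 over Control (adjusted p = 0.00511, edgeR) and is also 1 of 10 markers of smooth muscle and pericytes, of which 2 rose and 0 fell in YAP5SA over Control, with a median of 0.12 beside 0.06. Their sum was 710 to 1420 CPM in YAP5SA and 470 to 644 CPM in Control with Acta2, and 504 to 560 CPM in YAP5SA and 412 to 566 CPM in Control without it. Tagln, a defining marker of that list, was at 0 in all 5 Control libraries and under 1 CPM elsewhere. Without YAP5SA 3, 3 of the 24 rose over Control, without YAP5SA 1 there were 4, and without Control 1 and 2 and YAP5SA 3, which hold the most mitochondrial transcripts, there were 0 (Cnn2 2.17 and Myh9 1.51, adjusted p = 0.129 and 0.189, edgeR). Over MEF2A the same 3 alternatives left 5, 6 and 5 rises and 0, 1 and 0 falls. Of all genes, these alternatives left 544, 692 and 75 calls over Control, beside 1773. Over MEF2A they left 841, 1213 and 856 calls of all genes, beside 2679.

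Of 24 genes linked to MEF2 factors in muscle, 3 rose and 5 fell in YAP5SA relative to Control, with a median of -0.26. Ckm, the muscle creatine kinase, fell by 1.67 ± 0.25 on the log2 scale (adjusted p = 0.000492, edgeR), with 13, 19.5 and 13.4 CPM in YAP5SA and 37.7 to 67.7 CPM in Control. With library totals Ckm stood at -1.01 and was not called (adjusted p = 0.112, edgeR). Klf4, a zinc-finger transcription factor, rose by 2.20 ± 0.28 (adjusted p = 0.000102, edgeR), with 65.9, 32.5 and 53.2 CPM in YAP5SA and 6.09 to 14 CPM in Control. The other genes that fell were Mb, Pgam2, Hrc and Myh6, and the other genes that rose were Hspb7 and Meg3. Myh6 is also 1 of 12 cardiomyocyte markers, of which 0 rose and 4 fell in YAP5SA over Control (median -0.68). Over MEF2A, 0 of these markers rose and 9 fell (median -0.91). Their part in the values of this list was not tested. Relative to MEF2A, 3 of the 24 listed genes rose and 5 fell (median -0.54), and Ckm and Klf4 were again among them. MEF2A over Control had 0 calls in the list by edgeR, DESeq2 or limma-voom. There 3 of the 24 genes had an unadjusted p under 0.05 by edgeR, against 7.27% of all genes. Without Control 1 and 2 and YAP5SA 3 the list had 0 calls over Control (Ckm -1.31 and Klf4 2.06, adjusted p = 0.208 and 0.138, edgeR), without YAP5SA 1 there were 1 rise and 1 fall, without YAP5SA 2 there were 5 and 8, and with library totals 4 and 0. Of all genes, 75, 692, 2998 and 1736 were called in these settings, in that order, beside 1773. Without Control 1 the counts of the list were 2 and 2, and without Control 4 or YAP5SA 3 they were 2 and 3. Of all genes, 1301, 1461 and 544 were called there.

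Of 26 kinases, phosphatases and adaptors that act on MEF2 proteins and class IIa deacetylases, 2 rose and 3 fell in YAP5SA over Control, and 2 rose and 5 fell over MEF2A. Camk2b, a CaM kinase II subunit, fell by 1.14 ± 0.27 on the log2 scale over Control (adjusted p = 0.0114, edgeR), a call that ended without YAP5SA 1 or 3 (adjusted p = 0.0688 and 0.0975) and with library totals (-0.47, adjusted p = 0.525). Cabin1, a repressor of MEF2 and an inhibitor of calcineurin, fell by 0.74 ± 0.17 over MEF2A (adjusted p = 0.00696, edgeR), and that call ended without YAP5SA 3 (adjusted p = 0.0533) and with library totals (-0.26, adjusted p = 0.753). Without YAP5SA 1 the rises and falls over Control were 0 and 0, as they were without YAP5SA 3, and without YAP5SA 2 they were 4 and 5. Of all genes, 692, 544 and 2998 were called over Control in these settings, in that order, beside 1773. Without Control 1, 2 or 4, 2 or 3 genes of the list were called over Control, and with sex as a further term 4 rose and 4 fell. Of all genes, 1301, 1956 and 1461 were called without Control 1, 2 and 4, in that order, and 2115 with sex as a term.

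Of 16 acetyltransferases and DNA-bound partners of MEF2, 1 rose and 1 fell in YAP5SA over Control, and 2 rose and 2 fell over MEF2A. Nfatc2, a calcineurin-driven transcription factor, had 51.4 and 91.3 CPM in YAP5SA_MEF2A, 25.5, 70.2 and 29.7 CPM in YAP5SA, 145 to 199 CPM in MEF2A and 112 to 146 CPM in Control. It fell by 1.65 ± 0.31 on the log2 scale in YAP5SA over Control (adjusted p = 0.00335, edgeR) and by 2.04 ± 0.32 over MEF2A (adjusted p = 0.000727, edgeR), and both calls held with each library left out in turn. The call over Control ended with library totals (-0.97, adjusted p = 0.206), in batch 1 (-1.35, 0.081) and without Control 1 and 2 and YAP5SA 3 (-1.39, 0.364), and that over MEF2A ended in batch 1 (-1.77, 0.0577), all by edgeR. Like Mef2a, Hdac4 and Hdac9, it was highest in YAP5SA 2 among the YAP5SA libraries. Of 10 SRF cofactors, 1 rose and 1 fell in YAP5SA over Control, and 0 rose and 3 fell over MEF2A. Mrtfb, a myocardin-related coactivator of SRF, fell by 1.16 ± 0.23 over MEF2A on the log2 scale (adjusted p = 0.00287, edgeR), a call that held with each library left out but ended with library totals (-0.66, adjusted p = 0.341), in batch 1 (-0.92, 0.0693) and without Control 1 and 2 and YAP5SA 3 (-0.89, 0.0676). Its relative Mrtfa rose by 0.73 ± 0.20 over Control (adjusted p = 0.0261, edgeR), a call that ended without YAP5SA 1 or 3 or Control 1 or 2 (adjusted p = 0.053 to 0.138). Of 6 other genes of the MEF2 family, class II deacetylases and their corepressors, 0 were called by edgeR over Control (2 had an unadjusted p under 0.05), 1 was called by DESeq2 and by limma-voom, and 1 was called by edgeR over MEF2A, Hdac6, which fell by 0.70 ± 0.23 (adjusted p = 0.0454, edgeR) and whose call ended without any one of 9 libraries, at adjusted p up to 0.332, with library totals (-0.20, adjusted p = 0.838) and with sex as a further term (-0.58, adjusted p = 0.16).

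**Figure D5:**
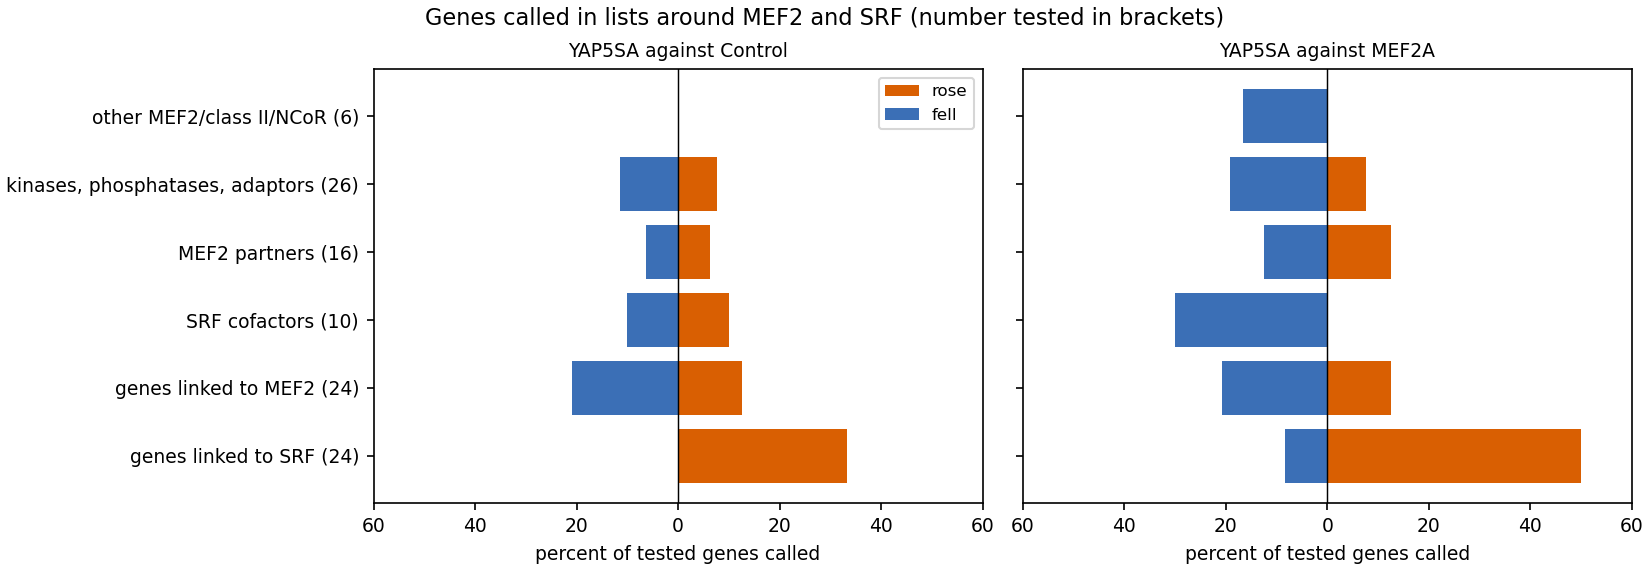
Percent of the tested genes of each list that rose (right) or fell (left) at an adjusted p under 0.05, for YAP5SA over Control and over MEF2A, with the number tested in brackets. The SRF-linked list has the longest bars to the right, 8 and 12 of 24 genes.

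The genes whose log2 CPM followed a called gene most closely over the 14 libraries were sought among 11193 genes. For Hdac9 they were Slc35e2 (Pearson r = 0.969), Exd2 (0.96) and Pdzrn4 (0.956). For Mef2a the first 2 were Mterf3 (0.965) and Ccdc146 (0.962). The libraries fall into groups and share their depth and scaling, so these values are a description only.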

How the data were processed

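The data were read counts per Ensembl gene for 14 libraries, deposited by the authors without normalization; the counts are whole numbers in the file. STAR, limma, edgeR and build GRCm38 are named in the submitters' processing notes. Tool versions, the program used for counting, the gene annotation and the strandedness are not given in the sources used here. Per the labels' protocols the libraries were polyA-enriched and non-directional. Groups, replicate numbers and batches were taken from the labels. No 2 columns were identical (0 pairs), and 0 columns of the table were left unused.

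Symbols, coordinates and exon lengths came from GENCODE vM21 by gene ID, which named 54409 of 54446 genes. Genes were kept by filterByExpr (minimum count 10, minimum total 15), and 17987 remained. Counts were scaled by TMM, CPM values use the scaled totals, and log2 CPM used a prior count of 2. Tests were quasi-likelihood F-tests of edgeR (robust option) over all 14 libraries, with group and batch as terms and 7 comparisons. The biological coefficient of variation was 0.503. Calls were made at p under 0.05, two-sided, after Benjamini-Hochberg adjustment over all genes tested. "Rose" and "fell" are used of called genes, and intervals are 95% intervals of the fit. The fit was tested on simulated data with 200 changed genes, and the outcome, not reported here, lends no support to the results. Tools were R 4.3.3, edgeR 4.0.16, limma 3.58.1 and DESeq2 1.42.0.

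The 9 genes, the lists and the tests were chosen with earlier results of these data known. Named from each list were the 2 called genes with the smallest p, or the 2 most abundant where none was called, of which the text gives a part. Acta2, Ankrd1, Tagln, Mb, Pgam2, Hrc, Myh6, Hspb7 and Meg3 were named after their values were seen. The genes most like a called gene were the 3 with the highest Pearson r of log2 CPM among genes with a mean log2 CPM of at least 1. Results for 2 of the genes these rules name are not reported here. Lists were counted and given no test of their own. Promoter sequences came from RefSeq, and Myocd is named only. Alternatives were other scalings, no filter, DESeq2, limma-voom, no batch term, single batches, the replicate number as a block, each library left out in turn, and Control 1 and 2 left out without or with YAP5SA 3. Sex as a term, read from Xist and Y-linked counts, was added after the data were seen.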

Additional observations from a re-analysis of the deposited data

Results flagged for a closer look

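Values were examined for a library far from the rest of its group in 70 groups of 4 or 5 libraries, and 2 stood out, where chance alone gives about 1 in 20. Ckm had 67.7 CPM in Control 1, against 37.7 to 43.9 CPM in the other Controls. The summed epicardial, Schwann cell and adipose markers came to 138 CPM in MEF2A 3, against 89.9 to 97.6 CPM in the other MEF2A libraries. None of the 9 genes was among them.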

How the results depend on the processing

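Over 27 alternatives the 63 values of the 9 genes gave 1665 further values. No called value changed sign (0), 21 lost their call, 31 gained one, and 122 changed sign without a call on either side. The lost calls belong to Hdac9 and Mef2a in YAP5SA over MEF2A. Apart from those ended by 1 library or a batch, they ended with library totals (adjusted p = 0.368 and 0.879) and without Control 1 and 2 and YAP5SA 3 (0.129 and 0.303), and with sex as a further term, chosen after seeing the data (0.0692 and 0.0799). That of Mef2a also ended without a batch term (0.0544).

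Genes called for YAP5SA over Control numbered 1773. The count was 2951 with DESeq2, 75 without Control 1 and 2 and YAP5SA 3, and 544 to 2998 with 1 library left out. The 1773 were 1023 higher and 750 lower, and with library totals 1703 were higher and 33 lower. For YAP5SA over MEF2A there were 2679 (1398 higher, 1281 lower), and 1605 with library totals (1526 higher, 79 lower), 667 in batch 1, 856 without Control 1 and 2 and YAP5SA 3, and 841 to 3870 with 1 library left out. For MEF2A over Control there were 3, and 0 with RLE scaling, library totals, mitochondrial genes removed, limma-voom or no batch term. Without the filter there were 358, with DESeq2 84, in batch 1 482, in batch 2 22, without Control 1 and 2 and YAP5SA 3 1, and 0 to 101 with 1 library left out. For YAP5SA_MEF2A over Control there were 244 (209 higher, 35 lower), and 412 with library totals (412 higher, 0 lower), 934 without the filter, 814 with DESeq2, 388 with limma-voom, 470 without a batch term, 130 with sex as a term, 1395 in batch 1, 138 without Control 1 and 2, 43 without these and YAP5SA 3, and 89 to 361 with 1 library left out. For YAP5SA_MEF2A over MEF2A there were 417 (290 higher, 127 lower; 427 and 3 with library totals), and 1103 without the filter, 1058 with DESeq2, 644 without Control 1 and 2, and 90 to 672 with 1 library left out. For YAP5SA_MEF2A over YAP5SA there were 0, and 164 without the filter, 18 with DESeq2, 1 with limma-voom, 6 in batch 1 and 0 to 227 with 1 library left out. For the interaction there were 0, and 61 without the filter, 22 with DESeq2, 1 in batch 1 and 0 to 11 with 1 library left out. The cause of these moves was not tested.

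The replicate numbers of the labels did not pair the libraries: 0 of 16 same-number pairs had a correlation of deviations over 0.1 (range -0.184 to 0.089), and 4 of 13 libraries were closest to one of their own number. With the number as a replicate block in place of batch, the counts were 938 for YAP5SA over Control, 1573 for YAP5SA over MEF2A, 0 for MEF2A over Control and 207 for YAP5SA_MEF2A over MEF2A. Under the block Mef2a missed the threshold for YAP5SA over MEF2A (-0.66, adjusted p = 0.0965, edgeR), and Hdac9 kept its call. Mef2c, Hdac9 and Myocd had the lowest counts of the 9 genes, down to 105, 154 and 105 in a library, and the YAP5SA_MEF2A group has 2 libraries.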
